A study of Mus musculus with 2 samples.

Results

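The HoxA cluster is a row of homeobox genes on mouse chromosome 6, and the CTCF sites in and around it are described here in embryonic lung. The members were Hoxa2, Hoxa3, Hoxa4, Hoxa5, Hoxa6, Hoxa7, Hoxa9, Hoxa10 and Hoxa11. A site was the summit of a peak in the deposited optimal list. That list comes from both replicates and is thresholded by reproducibility (the irreproducible discovery rate, IDR), with settings that are not stated. All sites from 100 kb before to 100 kb after the span of the 9 genes were taken, chr6:52062417-52345810 in build mm10. They numbered 14 of 54943 sites on chromosomes 1 to 19, X and Y. Of these, 6 lay inside the 83.4 kb span of the genes, chr6:52162417-52245810.

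The assay was ChIP-seq, in which DNA bound by CTCF is pulled down with an antibody and sequenced, on lung of B6NCrl mouse embryos at day 14.5, males and females mixed. There was 1 group of 2 replicates, and the labels give no treatment or mutation. The lungs were pulverised and pooled from several dissections. Both replicates share a biosample and donor record and 1 control file, so their spread may reflect technique alone. In whole lung, binding in fewer cells and less binding per cell cannot be told apart. No list gives read counts, and the depth is therefore unknown. Gene expression was not measured, so neither the tissue nor the activity of the Hox genes could be checked. Each peak has a signal, the enrichment value given by the authors' peak caller, which is not scaled between lists. With 1 group and 1 HoxA locus no test between groups was possible, and all shares below are descriptions.

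Hox genes encode transcription factors that set the identity of body regions along the head-to-tail axis. Within a cluster they are transcribed in the same direction, and the genes at the 3′ end act more anteriorly than those at the 5′ end. HoxA lies on the minus strand, so anterior genes have the lower coordinates. CTCF is a zinc-finger protein that binds an asymmetric motif, and with cohesin it shapes chromatin loops and domain boundaries. In motor neurons made from mouse stem cells, CTCF sites in this cluster are known to separate active from Polycomb-repressed Hox genes. Hoxa5 is required for normal development of the mouse trachea and lung, where it is expressed in the mesenchyme.

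The sequences at the sites are shown first, because the motif and its strand are read from them. A 20-base CTCF motif was learned from strong sites of other chromosomes, and its consensus is NNNCCACNAGGNGGCNNNNN, with N where no base reached 60% (at position 12, G fell just short of it). A match had to lie within 50 bp of the summit and score above a threshold that 1% of windows shifted by 1 kb passed. Of the 14 HoxA sites, 5 held a match, which is 35.7%. Among all sites of even-numbered autosomes and X, the share was 56.7%. The 5 matches are printed from the GRCm38.p6 chromosome, whose sequence is that of mm10, on the strand that carries the motif, with the 20-base match in capitals and 10 bases on each side.
site 3, in an intron of Halr1, minus strand: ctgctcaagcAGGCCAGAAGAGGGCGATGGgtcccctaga
site 6, upstream of Hoxa5, minus strand: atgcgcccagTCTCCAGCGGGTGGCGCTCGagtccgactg
site 8, between Hoxa7 and Hoxa9, minus strand: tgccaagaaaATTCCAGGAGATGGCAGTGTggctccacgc
site 9, upstream of the Hoxa10 coding sequence, minus strand: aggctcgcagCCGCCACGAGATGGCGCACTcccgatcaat
site 10, posterior of Hoxa11, plus strand: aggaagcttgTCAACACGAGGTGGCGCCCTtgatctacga

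Sites are numbered from anterior to posterior. The motifs of sites 3, 6, 8 and 9 run on the minus strand, in the direction of Hox transcription, and read toward the anterior end. The motif of site 10, which lies beyond Hoxa11, runs on the plus strand and reads toward the posterior end. From anterior to posterior the neighbouring motif-bearing sites therefore form 3 tandem pairs and 1 divergent pair, sites 9 and 10, which are 16.6 kb apart. None of the 4 neighbouring pairs was convergent. The matches lay 2 to 6 bp from the summit. Of the 10 positions with a fixed letter in the consensus, sites 9 and 10 had that letter at 9, and sites 3, 6 and 8 at 8. Any 2 of the 5 matches shared 8 to 15 of 20 bases.

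The matches scored from 13.2 at site 6 to 17.8 at site 3, and the order of scores was not the order of signals. Site 8, with the highest signal of the window, scored at percentile 23.7 of all optimal sites with a match. These sites include some from which the motif was learned. Site 6 scored at percentile 12.0, site 10 at percentile 40.9 and site 9 at percentile 49.2. None of the 5 matches passed the stricter threshold of 0.1% of shifted windows, and at a looser threshold of 5% a match was present at 11 sites. Those 11 comprised 6 on the minus strand (sites 3, 5, 6, 8, 9 and 11) and 5 on the plus strand (sites 1, 7, 10, 13 and 14), so the order of strands rests on the 1% threshold.

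Strong sites without a match are printed likewise, with the best-scoring 20 bases in capitals, because all 4 had signals over 100.
site 5, between Hoxa4 and Hoxa5, minus strand: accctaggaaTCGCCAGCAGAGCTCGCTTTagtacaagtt
site 7, between Hoxa6 and Hoxa7, plus strand: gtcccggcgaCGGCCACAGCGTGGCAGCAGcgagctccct
site 12, posterior of Hoxa11, plus strand: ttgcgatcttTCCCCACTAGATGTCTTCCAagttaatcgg
site 13, before Evx1, plus strand: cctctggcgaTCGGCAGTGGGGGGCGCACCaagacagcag

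Sites 7 and 12 had the consensus letter at 8 of its 10 fixed positions, site 13 at 7 and site 5 at 6. At sites 5, 7 and 13 these windows were matches at the 5% threshold, and at site 12 there was none at 5%. The lack of a match says only that no window near the summit scored above the threshold.

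By signal the window divided into 8 sites over 100 and 6 sites under 51. The 8 strong sites ran in a row from the Hoxa4 to Hoxa5 interval to Evx1, interrupted only by the weak site 11. Their signals were 120.8 to 385.0 (percentiles 68.6 to 98.9 of all sites). A percentile is the share of sites with a lower or equal signal. The 6 weak sites had 14.5 to 50.9 and were sites 1 to 4, 11 and 14. Across the 14 sites the median signal was 144, against 62.3 over all sites of the genome.

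**Figure D1:**
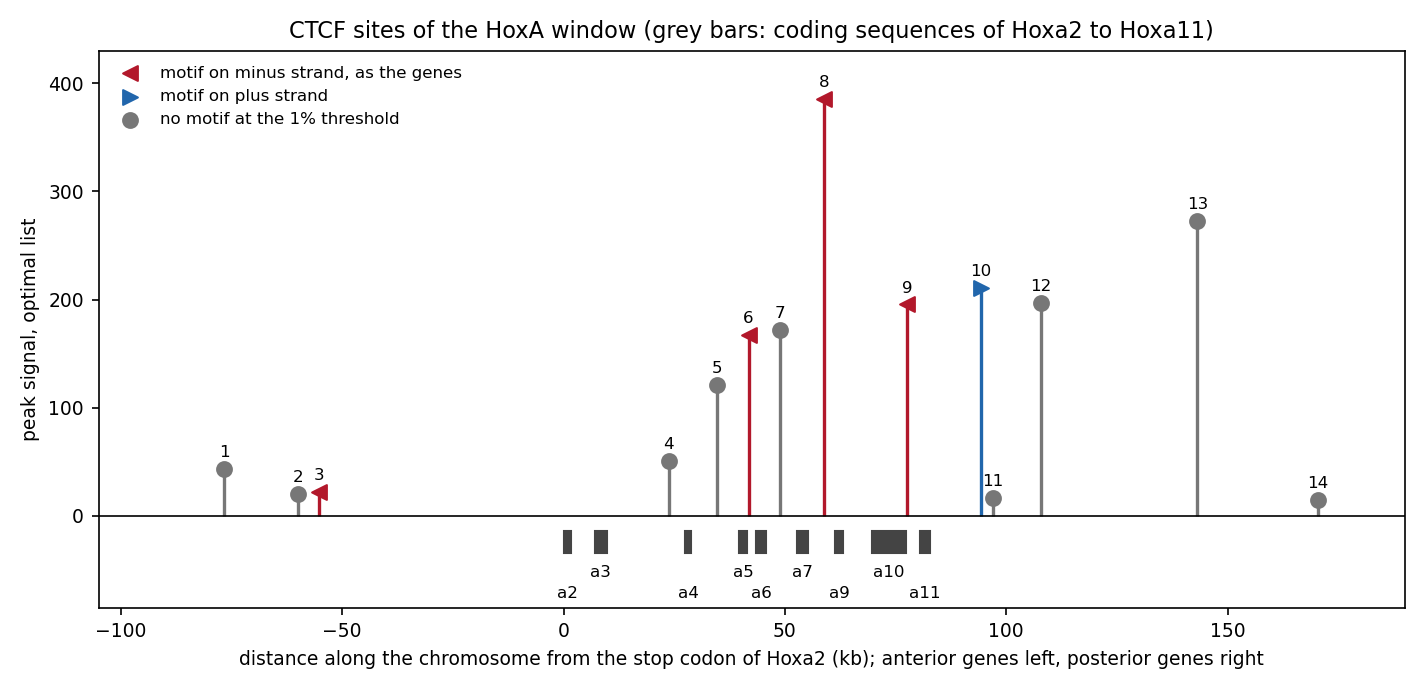
Signal in the optimal list (vertical axis) of the 14 sites against distance from the stop codon of Hoxa2 in kb (horizontal axis), with grey bars for the coding sequences of the 9 genes. Arrowheads show the direction of a motif and circles show sites without a match at the 1% threshold; 5 of the 6 sites among the genes exceed 100, and the highest, site 8 at 385.0, lies between Hoxa7 and Hoxa9.

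The anterior end of the window held 3 sites, all weak and all at or before Halr1, a long non-coding RNA gene anterior of the cluster. Site 1 (chr6:52086107-52086396), 16697 bp from the Halr1 transcription start site (TSS), had a signal of 43.7, with 12.2 in replicate 1 and 31.7 in replicate 2. Site 2 (chr6:52102722-52103011) lay 82 bp from that TSS and had 20.5, with 11.1 in replicate 1 and 8.86 in replicate 2. Site 3 (chr6:52107461-52107750), in a Halr1 intron, had 21.9, with 12.5 in replicate 1 and 5.96 in replicate 2. From site 3 no further optimal site followed for 79.1 kb, the longest gap of the window, which takes in Hoxa2 and the coding sequence of Hoxa3. Hoxa2, which patterns the hindbrain and the second pharyngeal arch in the mouse, was 21.9 kb from its nearest site, on its upstream side.

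Within the row of genes, 6 of the 8 intervals between neighbouring coding sequences held exactly 1 site each in the optimal list. The intervals without a site were Hoxa2 to Hoxa3, 5.3 kb long, and Hoxa9 to Hoxa10, 6.4 kb long. The occupied intervals were 2.02 to 17.7 kb long, so the empty ones were not the shortest. The count of 1 site per interval depends on the list. The conservative list, described below, held 7 sites in the span, the added one lying between Hoxa6 and Hoxa7 beside site 7.

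Site 4 (chr6:52186549-52186838) lay between the coding sequences of Hoxa3, required for the thymus and parathyroid in the mouse, and Hoxa4, which helps set the identity of neck vertebrae. It fell in an intron of a long Hoxa3 transcript and in repeat-masked sequence. Its signal was 50.9, with 28.6 in replicate 1 and 22.8 in replicate 2, so it was the weakest site inside the span.

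Site 5 (chr6:52197409-52197549), between Hoxa4 and Hoxa5, lay 5713 bp upstream of the Hoxa4 TSS. It had a signal of 120.8, with 63.6 in replicate 1 and 55.4 in replicate 2. This was the lowest of the 8 strong sites in the optimal list and in both replicates.

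Site 6 (chr6:52204595-52204785) lay 78 bp upstream of the annotated Hoxa5 TSS and 315 bp upstream of its start codon. Its signal was 167.7, with 87.5 in replicate 1 and 82.4 in replicate 2, the closest ratio of replicates inside the span. The promoter of Hoxa5 is printed in full because Hoxa5 has a known role in lung and a strong site lies in it. The RefSeq promoter of the GRCm38.p6 assembly, chr6:52204538-52204837 on the minus strand, covers 250 bases before and 50 after the start, with the motif in capitals 86 to 67 bases before it.
Hoxa5 promoter: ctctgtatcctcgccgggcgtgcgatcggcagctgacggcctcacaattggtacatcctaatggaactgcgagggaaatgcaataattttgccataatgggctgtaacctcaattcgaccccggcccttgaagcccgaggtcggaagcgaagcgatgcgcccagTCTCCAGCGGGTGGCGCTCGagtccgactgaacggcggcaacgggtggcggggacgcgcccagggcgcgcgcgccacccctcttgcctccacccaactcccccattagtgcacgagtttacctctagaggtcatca

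A match on either strand at the same threshold was present in 3.68% of 32851 RefSeq promoters of this length. The match of site 6 holds 3 CG dinucleotides, as does that of site 9, while the match of site 8 holds 0. Methylation of these bases was not measured here.

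Site 7 (chr6:52211636-52211837) lay between Hoxa6 and Hoxa7, 3120 bp upstream of the Hoxa6 start codon. Its signal was 171.6, with 99.1 in replicate 1 and 74.2 in replicate 2. It was also 1592 bp from the outermost annotated start of Hoxa3, whose longest transcript runs across Hoxa4, Hoxa5 and Hoxa6.

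Site 8 (chr6:52221679-52221959), between the coding sequences of Hoxa7 and Hoxa9, had the highest signal of the window at 385.0, rank 619 of the optimal list. It had 213.8 in replicate 1, rank 579 of that list, and 178.0 in replicate 2, rank 557. Hoxa7 helps set vertebral identity in the mouse, and Hoxa9 is known for its role in blood stem cells. The summit was 43 bp inside the outermost of 5 annotated Hoxa7 transcript starts, in an annotated untranslated exon. The other Hoxa7 starts lay 1.42 to 4.36 kb from it, and the start codon 3794 bp away.

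Site 9 (chr6:52240444-52240660) lay between Hoxa10 and Hoxa11, genes required for the mouse uterus. It was 305 bp downstream of the outermost Hoxa10 TSS and 262 bp upstream of the outermost annotated start codon. The other annotated Hoxa10 starts lay 0.25, 5.61 and 7.22 kb from it. Its signal was 195.4, with 107.3 in replicate 1 and 85.8 in replicate 2.

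Beyond Hoxa11 the window held 5 sites. Site 10 (chr6:52257041-52257234), in an exon of 9530018H14Rik, a gene annotated without a settled coding status, 11.4 kb upstream of the Hoxa11 start codon, had 210.8, with 106.5 in replicate 1 and 103.9 in replicate 2. Site 11, the next, 14.0 kb upstream of the Hoxa11 TSS, was weak in both replicates, with 10.6 in replicate 1 and 5.44 in replicate 2, and 16.6 in the optimal list. The 2.7 kb between sites 10 and 11 was the shortest gap of the window.

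Site 12 (chr6:52270596-52270813), between genes, had 196.4, with 96.2 in replicate 1 and 101.2 in replicate 2. Site 13 (chr6:52305965-52306179), 7438 bp from the TSS of Evx1, a homeobox gene that flanks the cluster, had 273.0, with 151.5 in replicate 1 and 120.6 in replicate 2. Only sites 8 and 13 lay at or above the 90th percentile of all sites. Site 14 (chr6:52333204-52333493), 87.5 kb from Hoxa11, had 14.5, with 10.6 in replicate 1 and 4.82 in replicate 2, and was the weakest of the window.

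The widest differences between replicates were at the weak sites 1, 3, 11 and 14, while the weak sites 2 and 4 differed no more than strong ones. All 14 sites were listed in both replicates, beside 97.8% of all optimal sites. Among the 8 strong sites the ratio of replicate 1 to replicate 2 was 0.95 to 1.337, and among the 6 weak sites 0.386 to 2.198, with 1.255 at site 2 and 1.254 at site 4. Over all sites the median ratio was 1.23, with 0.719 and 2.23 as the 5th and 95th percentiles. Site 1 alone lay outside that range, higher in replicate 2. Among the strongest 54953 peaks of each replicate alone, as many as the optimal list holds, sites 11 and 14 were absent from both replicates and site 3 from replicate 2. Without replicate 1 there were thus 4 sites with a match, 3 of them on the minus strand.

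By percentile within each replicate list of 300000 peaks, the strong sites differed by at most 1.319 percentage points between replicates. They all lay above percentile 94 of both lists, where little room for a difference is left: the largest, at site 12, was between rank 11575 in replicate 1 and rank 7619 in replicate 2. Of the weak sites, site 2 differed by 0.103 points, site 4 by 0.063 points, and the other 4 by up to 15.2 points. The median difference was 0.586 points for HoxA sites and 0.971 points for all sites. Both replicates placed site 8 first, site 13 second and site 5 eighth. The order among sites 6, 7, 9, 10 and 12 changed in part between replicates, so those 5 have no single full order by signal.

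**Figure D2:**
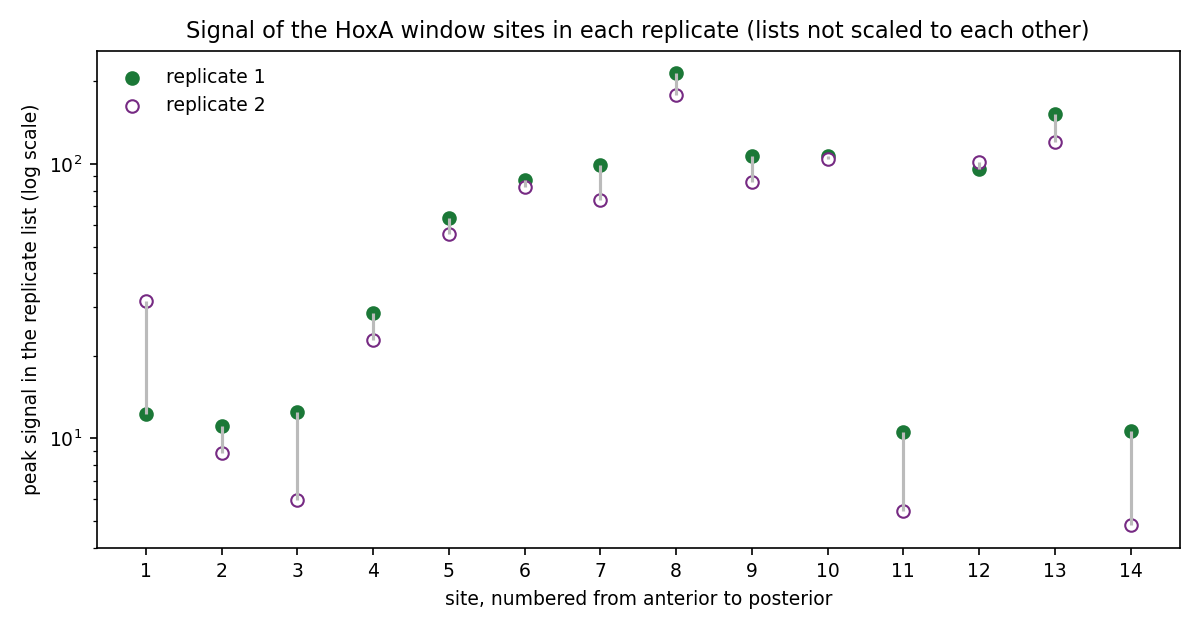
Signal in the list of replicate 1 (filled) and replicate 2 (open) on a log axis for each of the 14 sites, numbered from anterior to posterior, with a grey line joining the 2 values. Sites 5 to 10, 12 and 13 lie above 50 in both replicates, and the pair of points is widest at site 1, with 12.2 in replicate 1 and 31.7 in replicate 2.

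The conservative list, also thresholded by IDR, held 10 of the 14 sites, beside 87.5% of all optimal sites. All 8 strong sites were in it, with sites 2 and 4 of the weak ones. It was not a subset of the optimal list. In the window it held 12 sites, of which 2 were not optimal. These were 1 near Hoxa6, with a pooled signal of 18.4, and 1 posterior of Hoxa11, with 20.3. Each of the 6 weak peaks was 290 bp wide, and the strong peaks were 141 to 281 bp wide. The weaker entries of the window outside the optimal list, described below, were also 290 bp wide. This width is therefore not read as the extent of binding. Repeat-masked summits numbered 3 of 14 (sites 3, 4 and 14), all weak, beside 19.6% of all optimal sites. The share of G and C up to 100 bp on each side of the summit was 41.8% to 68.2% among strong sites and 45.8% to 65.7% among weak sites, so the ranges overlapped.

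Promoter sites, within 1 kb of the outermost TSS, were present at 3 of the 9 members: Hoxa5, Hoxa7 and Hoxa10. Over all 21911 protein-coding genes the share was 26.6%. With the starts of RefSeq, which gave 8 of the 9 members, Hoxa5 and Hoxa10 had such a site and Hoxa7 did not, since the RefSeq start of Hoxa7 is further inside the gene. At Hoxa10 this holds for the outermost RefSeq start, while another lies 5.61 kb from site 9. Among partners that bind DNA with Hox proteins (the Pbx, Meis and Pknox genes), 4 of 9 had a promoter site. The highest signals were 184.2 at Pknox2, 99.995 at Meis3 and 39.2 at Pbx4. Among 28 other Hox genes, 4 had one, with 314.7 at Hoxb5, 203.3 at a site assigned to both Hoxc5 and Hoxc10, and 75.5 at Hoxd10. The assignment to Hoxc5 comes from a long transcript that starts near Hoxc10.

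The members without a promoter site still had weak entries in the list from pooled reads, which reaches far below the IDR threshold. Within 1 kb of the TSS the strongest such entry was 18.4 at Hoxa6, 14.1 at Hoxa11, 13.5 at Hoxa2, 12.0 at Hoxa3 and 6.71 at Hoxa4, and Hoxa9 had none. The entry near Hoxa6 had 10.9 in replicate 1 and 7.75 in replicate 2, and it was in the conservative but not in the optimal list. Through it, the conservative list gives 4 members with a promoter site.

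In all, 57 further pooled summits of the window lay outside optimal peaks, of which 17 were listed in both replicates. Their signals were 5.03 to 23.6 with a median of 6.71. None held a motif match, and 3 reached the lowest signal of an optimal HoxA site, 14.5. The highest lay in a coding exon of Hoxa4, with 16.1 in replicate 1 and 6.04 in replicate 2. The interval from Hoxa9 to Hoxa10, empty in the optimal list, held 3 such summits of at most 8.79.

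**Figure D3:**
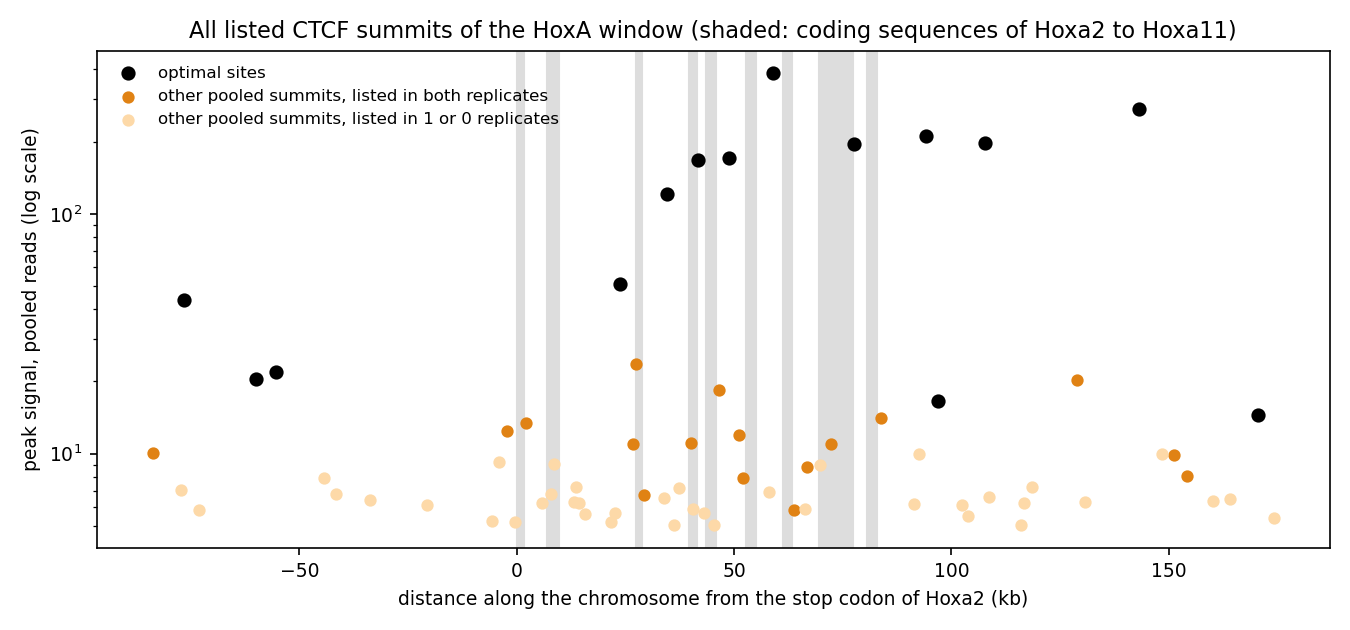
Signal from pooled reads on a log axis against distance from the stop codon of Hoxa2 in kb, for the 14 optimal sites (black) and the 57 other summits (orange where both replicates list them, pale otherwise); shading marks coding sequences of the 9 genes. The other summits stay between 5.03 and 23.6, below every one of the 8 strong sites.

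The window held 14 matches to the motif in all, of which 5 were those of the optimal sites and 9 lay in no pooled peak. The unoccupied matches scored 12.1 to 17.7, and of these 8 lay in repeat-masked sequence, against 1 of the 5 occupied matches. Of the 9, 2 lay in a weak peak of 1 replicate list. Of the same 9, 5 lay posterior of Hoxa11, all on the plus strand, and 3 anterior of Hoxa2. The remaining one, chr6:52206304-52206323 on the plus strand in the Hoxa6 untranslated region, was outside repeats and scored 13.4, slightly more than the occupied match upstream of Hoxa5.

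HoxA was set beside the HoxB, HoxC and HoxD clusters over the genes of paralogue groups 2 to 11, whose members in different clusters descend from the same ancestral gene. HoxA had 6 sites in 83.4 kb (7.19 per 100 kb), HoxB 12 in 82.6 kb (14.54), HoxC 4 in 82.4 kb (4.85) and HoxD 5 in 68.9 kb (7.26). Beside the 7.19 per 100 kb of the HoxA span, chromosome 6 as a whole had 2.03 and the genome 2.02. The median signal was 169.6 in HoxA, 38.5 in HoxB, 194.9 in HoxC and 124.0 in HoxD. Sites over 100 numbered 5 in HoxA, 4 in HoxB, 3 in HoxC and 3 in HoxD. At the 1% threshold, motifs inside the HoxA span all ran in the direction of the genes (3 of 3), as in HoxC (2 of 2) and HoxD (2 of 2). HoxB had 2 in that direction and 2 opposite. At 5%, sites 5 and 7 of the HoxA span had matches too, site 5 in the direction of the genes and site 7 opposite. Each cluster is 1 locus, so these differences were not tested.

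**Figure D4:**
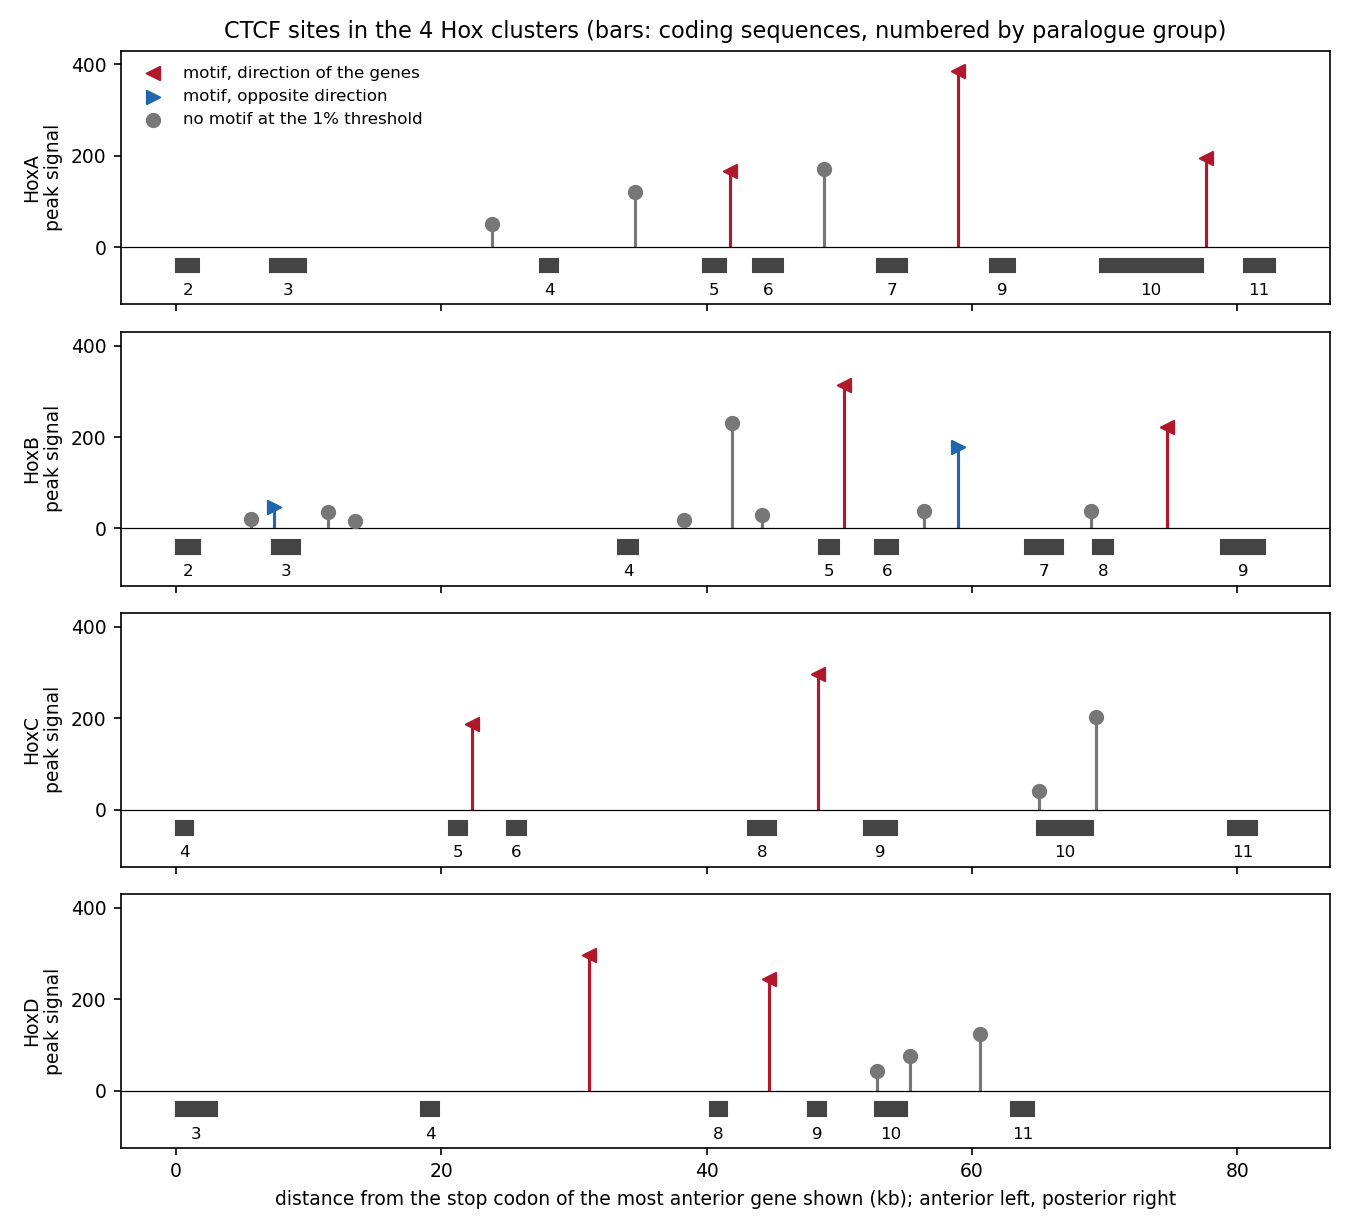
Signal of optimal sites (vertical axis) along the 4 Hox clusters, HoxA on top, against distance from the stop codon of the most anterior gene shown in kb; bars are coding sequences numbered by paralogue group. Red arrowheads are motifs in the direction of the genes, blue ones opposite and grey circles sites without a match; a site stands just behind the start of the group 5 gene in HoxA, HoxB and HoxC and of the group 10 gene in HoxA, HoxC and HoxD.

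The sites of Hoxa5 and Hoxa10 have counterparts in the other clusters. Start codons are the outermost coding base annotated for each gene. A site lay upstream of the start codon by 315 bp at Hoxa5, with a signal of 167.7, by 356 bp at Hoxb5 with 314.7, and by 382 bp at Hoxc5 with 186.5. In group 10 a site lay 262 bp upstream at Hoxa10, with 195.4, 252 bp upstream at Hoxc10 with 203.3, and 199 bp upstream at Hoxd10 with 75.5. The limit of 500 bp and the choice of groups 5 and 10 both came after these values were seen. With them, 6 of 6 genes of groups 5 and 10 had such a site and 0 of the 24 other Hox genes of groups 2 to 11. That split follows from the choice and is a description only. Within HoxA, 2 of 9 members had a site within 500 bp upstream, beside 9.79% of 21884 protein-coding genes. With a limit of 250 bp, 1 of the 6 genes of groups 5 and 10 had a site.

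The paralogous sequences are printed beside those of sites 6 and 9 above, on the strand of the genes, to show how far they resemble each other. Capitals mark the match at Hoxb5 and Hoxc5 and, at Hoxc10 and Hoxd10, the best-scoring 20 bases, which did not pass the 1% threshold. The window of Hoxc10 scored 8.63 and passed the 5% threshold, whereas that of Hoxd10 scored -1.04 and did not.
Hoxb5: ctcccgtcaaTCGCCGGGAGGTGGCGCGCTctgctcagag
Hoxc5: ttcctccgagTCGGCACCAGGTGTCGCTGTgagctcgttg
Hoxc10: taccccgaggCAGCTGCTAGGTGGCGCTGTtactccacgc
Hoxd10: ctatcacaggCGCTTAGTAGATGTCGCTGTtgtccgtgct

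The Hoxa5 match shared 14 of 20 bases with that of Hoxb5 and 13 with that of Hoxc5. With the 8 motifs of the other clusters, these 2 included, it shared 7 to 14, with a median of 11. The Hoxa10 match shared 13 bases with the window of Hoxc10 and 11 with that of Hoxd10, beside 9 to 15 with the 8 motifs of the other clusters, with a median of 12.5. The identities of both group 10 windows lay inside that range.

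Outside the window the nearest optimal site on each side was weaker than the 8 strong sites. On the anterior side the next lay 40.5 kb from site 1, with a signal of 45.6, and on the posterior side 81.4 kb from site 14, with 27.1.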

How the data were processed

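CTCF ChIP-seq peak lists of embryonic mouse lung were used as the authors deposited them: 1 per replicate, 1 from pooled reads and 2 thresholded by IDR. The deposited file records give mm10 as the assembly and 1 control shared by both replicates; the sources used here do not state the aligner, the caller or the IDR settings. The signal is the caller's value in the deposited lists, unscaled between lists; the deposited −log10 q was not used. Summits were the peak start plus the deposited offset.

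Genes came from GENCODE M21 and sequence from GRCm38.p6, whose chromosomes are those of mm10. The motif matrix came from odd-numbered autosomes (their 3000 strongest sites). Replicate signals are those of the replicate peaks that overlap a site. Intervals between genes run between coding sequences, not TSSs as first planned, because a long Hoxa3 transcript covers its neighbours. The motif scan was tested on simulated data. Members, lists and measures were chosen with earlier results of these data known. Named genes were the members, annotated genes next to a site, the 3 members of each list with the strongest promoter site and, added after values were seen, the group 5 and 10 paralogues. Alternatives changed the list, replicates, flank, motif threshold and window, and promoter definition. Python 3.11.15, numpy 2.4.6 and pandas 2.3.3 were used. Some genes of the region are not reported here.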

Additional observations from a re-analysis of the deposited data

How the results depend on the processing

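Of 72 alternative values, 64 stayed within 1.5 times the value reported. With a flank of 50 kb the window held 9 sites. At a motif threshold of 0.1% of shifted windows 0 sites had a match, 0 on the plus and 0 on the minus strand, and at 5% there were 11 with a match, of which 5 on the plus strand. Within 5 kb of the TSS, 5 members had a site. With 250 bp upstream of the start codon, an alternative chosen after seeing the data, 1 gene of groups 5 and 10 had a site. The cause was not tested. Leaving out a replicate left 12 to 15 sites in the window, 7 to 8 in the span and 4 to 5 with a motif. Site 3 was lost without replicate 1, and sites 11 and 14 without either. No paired analysis was possible because there is 1 group and no test. Depth is unknown, so the absence of a peak is not absence of binding.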
